A study of Mus musculus with 2 samples.

Results

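Pura and Purb encode Purα and Purβ, the purine-rich element binding proteins, and their rows were found by symbol, as 2 of the 23282 rows of gene symbols in the tables of both libraries. They had been chosen for their difference between control and TSA-treated cells, so that this difference is described below and was not tested. Naïve CD4+ T cells from the spleens of wild-type C57BL/6 mice, females used at 7 to 10 weeks of age, were activated through CD3 and CD28 and cultured for 1 day with TGF-β1, IL-2 and antibodies against IFN-γ and IL-4, conditions that induce regulatory T (iTreg) cells. One culture received DMSO (control) and the other 10 μM Tubastatin A, an inhibitor of histone deacetylase 6 (HDAC6) that is abbreviated to TSA here and is not trichostatin A. RNA of each was sequenced as 1 library, so no difference between control and TSA-treated cells given here has a replicate check, and the treatment cannot be told apart from any other difference between the 2 cultures or their library preparations.

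Purα and Purβ are closely related proteins that bind purine-rich single-stranded DNA and RNA, with a preference for runs of GGN, in which N is any base. Purα can unwind duplex DNA at such runs, and with the cold-shock protein YB-1 both proteins repress smooth muscle α-actin, a gene that TGF-β switches on in fibroblasts. Purα is also a part of the granules in which kinesin carries mRNA along microtubules, it binds the retinoblastoma protein and E2F1, and it was first known from a site upstream of the Myc gene. A further family member, Purγ, is encoded by Purg.

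The libraries were made with a QuantSeq kit, which yields reads from next to the poly(A) tail, about 1 per captured transcript whatever its length, so that levels of different genes can be compared without a correction for length. The deposited values are log2 of a normalized count plus 1. Taken off the log2 scale, nearly all low values were whole multiples of what 1 read was worth, a normalized count of 1.005 for control and 0.995 for TSA. Dividing by these gave the reads of each gene, with totals of 10846171 (control) and 10432643 (TSA). Of all rows, 12164 had at least 10 reads in at least 1 library and were compared. The 5 T cell markers examined (Cd3e, Cd3g, Cd3d, Cd247 and Cd4) had 602 to 3012 reads each in control and 794 to 3615 in TSA-treated cells. Of the Treg markers, Foxp3 had 1633 and 965 reads and Il2ra 8851 and 7511, and their part in the differences below was not tested. Markers of other cells had far fewer reads. The 3 B cell markers summed to 1 and 11 reads, the 4 myeloid markers to 26 and 21, the 2 NK cell markers to 0 and 1, and the 2 CD8 T cell markers to 80 and 87.

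Both genes lie on single-transcript models in GENCODE M21 on GRCm38, the assembly of the mm10 build that the processing notes name. Pura (ENSMUSG00000043991.5) occupies chromosome 18 from 36281097 to 36292535 on the plus strand, with 2 exons of which 1 is coding. Purb (ENSMUSG00000094483.2) is a single-exon gene on chromosome 11 from 6467599 to 6475917 on the minus strand. The coding sequences are of near-equal length, 963 and 972 bases, and each is followed by a long 3′ UTR of 4411 bases in Pura and 7316 bases in Purb. Near the annotated transcript end, where QuantSeq reads begin, the poly(A) signal AATAAA (searched on the transcript strand) started 31 bases before the end in Pura and 28 in Purb. For comparison, 40.5% of 58797 protein-coding transcripts held AATAAA in their last 50 bases. The transcripts of Pura and Purb shared no run of 75 bases, the read length, and their longest common run was 44 bases. AATAAA was counted 3 times in Pura and 9 times in Purb, the first 107 and 140 bases from the stop codon. The tables give 1 value per symbol, so different ends within a 3′ UTR are not resolved. The antisense gene Gm11973 covers 493 bases at the 5′ end of Purb and was not analysed here. Whether the counting used the strand is not given in the sources used here.

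The promoter of Purb is shown because the RefSeq promoter table used here was matched for 1 of the 2 genes, Purb. That of Pura was therefore not examined. The Purb promoter was searched for the GGN repeats that these proteins prefer and holds a run of them. The 250 bases before the RefSeq start of Purb (GRCm38.p6, chr11:6476077-6476326, minus strand) read as follows, 5′ to 3′, with capitals on the bases covered by matches to GGNGGNGGN.

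Purb promoter: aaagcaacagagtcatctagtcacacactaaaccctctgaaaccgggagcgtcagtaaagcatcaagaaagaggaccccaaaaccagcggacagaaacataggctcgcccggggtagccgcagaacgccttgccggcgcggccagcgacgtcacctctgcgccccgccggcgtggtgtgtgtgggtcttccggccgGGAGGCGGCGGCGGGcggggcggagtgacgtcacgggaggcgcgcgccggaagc

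GGNGGNGGN occurred 3 times on the strand of the gene, in overlapping matches, and 0 times on the other strand. Of 32851 promoter windows of the same length, 25.1% held this motif on the gene's strand and 41.0% on either strand. The palindrome TGACGTCA, the cyclic AMP response element, was also present, as in 1.55% of windows. The GC content of the Purb window was 66.0%, against a median of 52.4% over all windows. These matches describe the letters of the window and no binding was measured.

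In the control library Pura had 1727 reads, a normalized count of 1735.5 (95% counting interval 1654.7 to 1819.4). The TSA library held 389 reads of Pura, a normalized count of 387.0 (349.6 to 427.5). The level was therefore 4.48-fold lower in TSA-treated cells, with a counting interval of 4.01-fold to 5.02-fold, and the log2 fold change was -2.16. In order of level among the genes compared, Pura moved from place 1217 in the control library to place 4657 in the TSA library. Here and below, fold intervals are exact Clopper-Pearson 95% intervals on the reads of the 2 libraries and level intervals are exact Poisson intervals. They cover counting error only, because PCR copies of a molecule cannot be told apart from other reads. In bulk RNA, fewer cells that express a gene and less RNA per cell cannot be told apart either.

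Purb was the more abundant of the pair, with 5223 reads and a normalized count of 5248.6 (5107.5 to 5393.2) in the control library. In the TSA library it had 4243 reads and a normalized count of 4221.8 (4096.1 to 4351.2). This was 1.24-fold lower (1.19 to 1.29), a log2 fold change of -0.31, and Purb went from place 273 to place 328. Purb was thus lower by more than counting error in the TSA library, by a far smaller factor than Pura. The same held for 28.0% of all genes compared and for 58.9% of those within 1.5-fold of the control level of Pura. Nothing particular to Purb is therefore read from it.

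Purg, the remaining family member, was close to the lower limit of the data. Its 15 control reads and 18 TSA reads gave a log2 fold change of 0.23, and its fold interval of 0.566 to 2.53 included no change. The order of the 3 genes was the same in both libraries, Purb over Pura over Purg, and no 2 of their level intervals overlapped within a library.

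**Figure D1:**
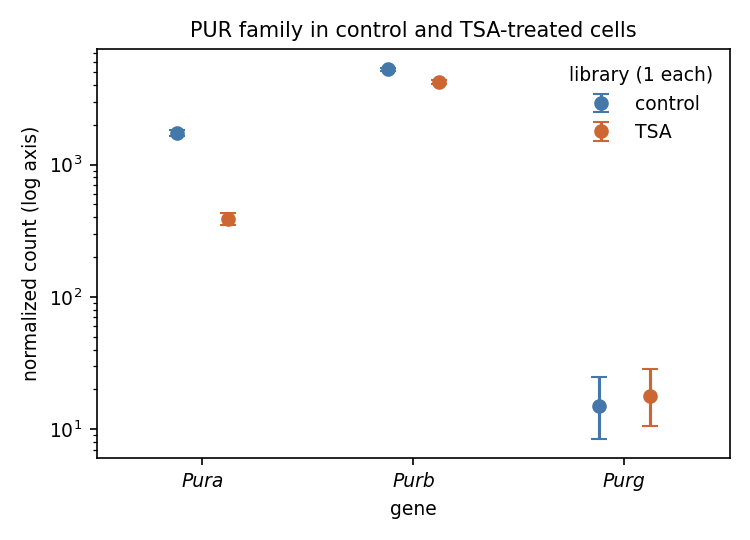
Normalized count (log axis) of Pura, Purb and Purg in the control (blue) and TSA (orange) library, 1 library each; bars are exact Poisson 95% intervals. Pura stands at 1735.5 and 387.0, Purb at 5248.6 and 4221.8, and the intervals of Purg overlap.

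The proportion of both transcripts within a library does not depend on the scaling between libraries. Pura made up 24.8% (23.8% to 25.9%, Clopper-Pearson) of the reads of Pura and Purb together in the control library. In the TSA library its share was 8.4% (7.61% to 9.23%). Purb therefore exceeded Pura 3.02-fold (2.86 to 3.2) in control cells and 10.9-fold (9.83 to 12.1) in TSA-treated cells. On the log2 scale the change of Pura was lower than that of Purb by a difference of -1.85, with an exact counting interval of -2.02 to -1.68. The log2 fold change of both genes summed was -0.60 (-0.65 to -0.55). In normalized counts the difference of Pura, 1348.5, was larger than that of Purb, 1026.8, so that the less abundant gene accounted for 56.8% of the summed difference.

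With the 2-fold threshold of the study, 1 of the 2 genes, Pura, was past it. Of all genes compared, 14.7% were past 2-fold in either direction, 3.15% being lower and 11.5% higher. Since the genes were chosen on this contrast, nothing is read from that count. The spread of changes depended on the level, with most calls at low read counts, and so each gene was set beside genes of similar control level, within 1.5-fold of its own.

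**Figure D2:**
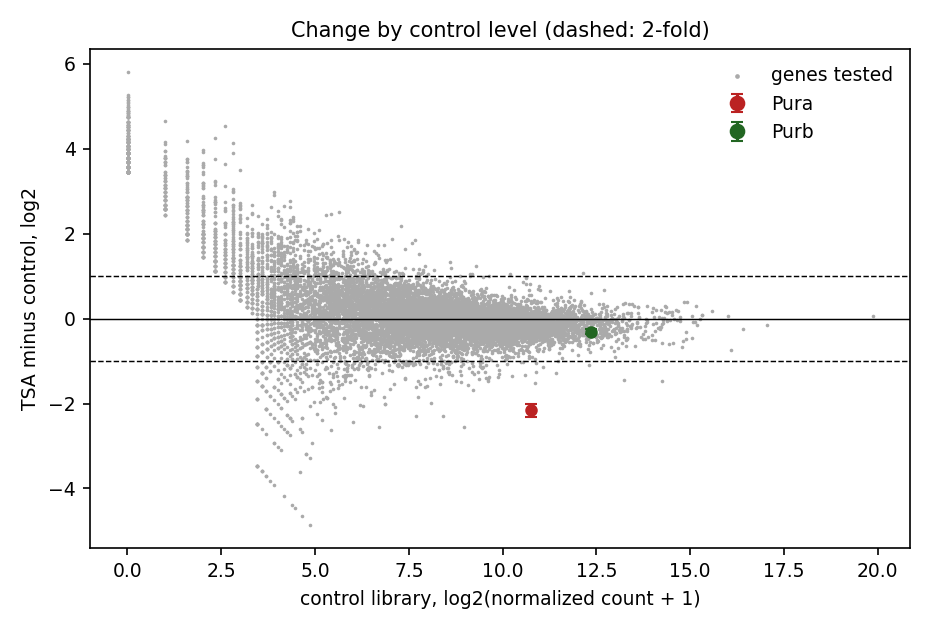
TSA minus control value (log2) against the control value, log2(normalized count + 1), for the 12164 genes compared (grey), with Pura (red) and Purb (green) and their 95% counting intervals; dashed lines mark 2-fold. Pura lies at -2.16, apart from the genes around it, and Purb at -0.31 lies among them.

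For Pura this window ran from 1157.0 to 2603.3 normalized counts and held 1170 other genes. Their median log2 fold change was -0.15, the central 90% lay between -0.57 and 0.25, and 874 of them were lower in the TSA library by any amount. None of the 1170 was as low as Pura, which lay -2.01 from their median. The lowest of them was Mki67, the proliferation marker, with 1861 and 653 reads and a log2 fold change of -1.52. In this window 8 genes, or 0.684%, were lower by more than 2-fold. A larger decrease than that of Pura was found for 61 of the 11132 genes with 10 or more control reads, and for none of the 2265 with 1000 or more. Among the 8055 with 100 or more there were 4, named here after their values were seen: the chemokine receptors Ccr6 and Ccr4, the protease Capn3 and the growth factor Hbegf, with log2 fold changes of -2.56, -2.30, -2.54 and -2.30.

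For Purb the window held 326 genes between 3499.1 and 7872.9 normalized counts, with a median log2 fold change of -0.14. Of these, 87 were lower than Purb, which placed it at percentile 26.7, within the middle range of the genes expressed at its level (-0.55 to 0.30 for the central 90%). It lay -0.18 from their median. At this level 0.307% of genes were lower by more than 2-fold.

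**Figure D3:**
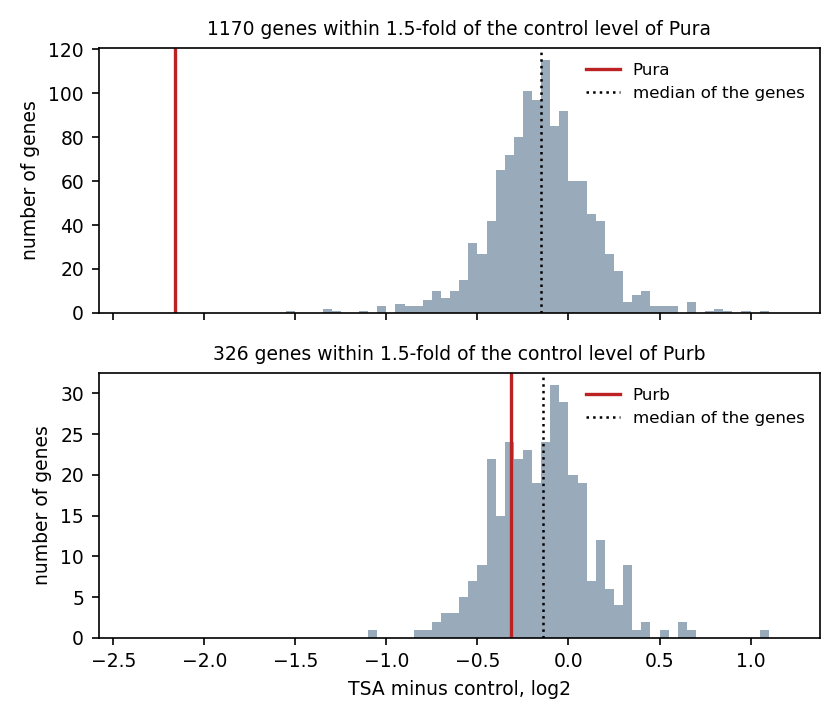
Number of genes by TSA minus control value (log2, bins of 0.05) among the 1170 genes within 1.5-fold of the control level of Pura (top) and the 326 of Purb (bottom). The red line marks the gene itself and the dotted line the median of the others; Pura at -2.16 lies below all genes of its panel, and Purb at -0.31 lies inside the distribution.

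The genes with the pattern most like each member were those nearest to it in the plane of both log2 values, a distance over 2 libraries. Nearest to Pura were Cenpe, a kinetochore motor (distance 0.59, log2 fold change -1.34), Birc5, which encodes survivin (0.67, -1.34), and Mki67 (0.75, -1.52). None was close to it. Purb had near neighbours on the same measure, with Hspe1, a mitochondrial chaperonin, at a distance of 0.033, the cold-shock protein gene Ybx3 at 0.046 and Canx, which encodes calnexin, at 0.057.

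The proteins described as acting with Pur proteins on DNA were represented by 10 genes, all of which had enough reads. None was past 2-fold, 7 were lower and 3 higher, and the median log2 fold change was -0.14. Over all genes compared the median was 0.015, 14.7% were past 2-fold and 48.6% were lower by any amount. At the control levels of Pura and Purb, 74.7% and 73.9% of genes were lower, with the medians of -0.15 and -0.14 given above. More than 2-fold lower at these levels were 0.684% and 0.307%, and 1 gene at each level was more than 2-fold higher. The listed genes spread over more levels than those windows, with control normalized counts from 219.1 (Ccnt1) to 18102.7 (Ybx1). Ybx1, which encodes YB-1, had 18013 and 15489 reads in the control and TSA library (log2 fold change -0.23). Hnrnpk, a binder of C-rich single strands, had 10622 and 9568 reads (-0.17). Sp1, a GC-box transcription factor, had 2485 and 2314 reads (-0.12). These 3 were each lower by more than counting error and by less than Purb. Ccna2, the cyclin of S phase that binds CDK2, was the lowest of the list, with 1652 and 876 reads (-0.93).

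RNA transport granule and P-body proteins made up a list of 19 genes, of which 17 were compared. Lower values were found for 13 of these and higher ones for 4, by more than counting error in 12 and 2 of them, and the median change was -0.27 on the log2 scale. The share lower was 76.5%, beside the 48.6% of all genes compared and the 74.7% at the level of Pura. Beyond counting error, 58.9% of the genes at the level of Pura were lower and 15.3% higher, against 28.0% and 28.1% of all genes compared. The stress granule protein gene G3bp1 had 9606 and 7449 reads (-0.38). Hnrnpu, a nuclear RNA-binding protein gene, had 8882 and 7643 reads (-0.23). Ddx3x, an RNA helicase gene, had 8089 and 6325 reads (-0.37). These 3 abundant members were thus all lower by a factor close to that of Purb. The 1 member of 17 past 2-fold was higher, as 11.5% of all genes compared were: Kif5c, a kinesin-1 heavy chain, went from 20 control reads to 110 TSA reads, a fold change of 5.23 (3.36 to 9.26). Kif5b, the heavy chain with the most reads, named here after its values were seen, had 3105 and 2275 reads (-0.46). Kif5a, with 8 and 8 reads, and Stau2, with 7 and 9, had too few.

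Of 11 genes described as bound or repressed by Purα or Purβ in other cells, 6 had enough reads to be compared, 3 of them lower and 3 higher, with a median log2 fold change of 0.12, beside 48.6% lower and a median of 0.015 over all genes compared. Acta2, the smooth muscle α-actin gene, was the 1 member past 2-fold, where 14.7% of all genes were, with 13 control reads and 36 TSA reads, a fold change of 2.62 (1.42 to 5.63). Both of its values rest on few reads. Spn, which encodes the leukocyte sialoglycoprotein CD43, had 2891 and 2677 reads (-0.12), and Myc had 1312 and 1170 reads (-0.18), both lower by more than counting error. E2f1, which is on the partner list too, had 903 and 895 reads (-0.03), and App, the amyloid precursor protein gene, had 22 and 30 reads (0.42), neither beyond counting error. The heart myosin genes Myh6 and Myh7 had 0 reads in both libraries, which allows up to 3 reads in each. Itgax had 4 and 0 reads, Spi1 5 and 6, and Gata2 1 and 1.

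As a wider class, 35 other genes for proteins that bind single-stranded DNA or RNA were examined, all with enough reads and Purg among them. None was past 2-fold, and 22 were lower and 13 higher, with a median of -0.10. The share lower, 62.9%, lay between the 48.6% of all genes compared and the 74.7% at the level of Pura. Past 2-fold were 14.7% of all genes, with most calls at low read counts. At the level of Pura, 0.684% were more than 2-fold lower and 1 of 1170 was more than 2-fold higher. The lowest was also the most abundant: Ncl, which encodes nucleolin, had 68644 and 41564 reads (-0.74). Pcbp1, a poly(C)-binding protein gene, had 6949 and 6700 reads (-0.07), and Ybx1 and Hnrnpk, which belong to this list too, are given above. The replication protein A subunit genes Rpa1, Rpa2 and Rpa3, named here after their values were seen, had log2 fold changes of -0.12, -0.31 and 0.09. The change of Pura, -2.16, was below the range of the list, -0.74 to 0.64, while that of Purb was within it.

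**Figure D4:**
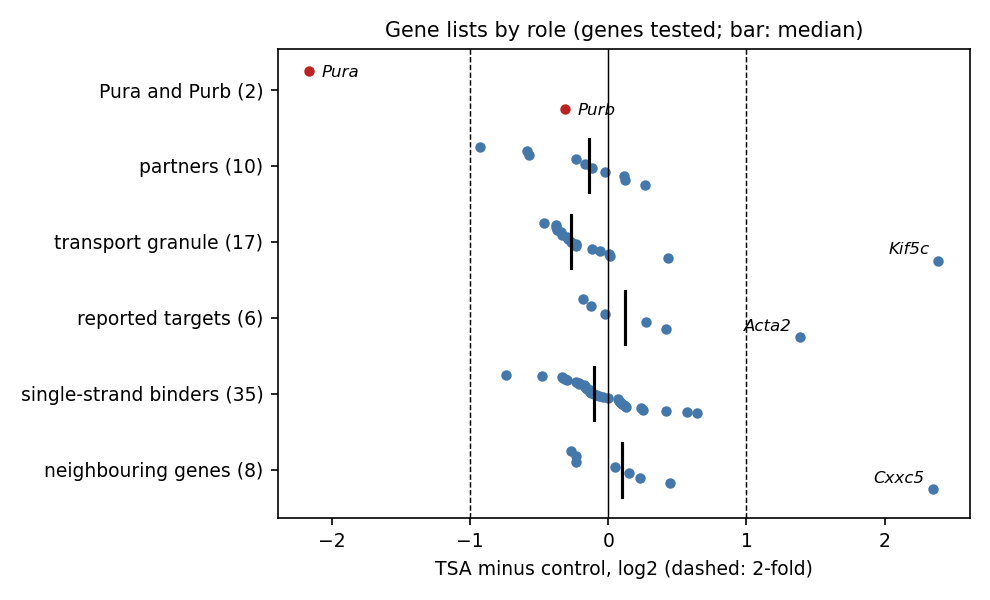
TSA minus control value (log2) of Pura and Purb (red) and of each gene compared in 5 lists (blue; number of genes in parentheses), with the list median as a bar and 2-fold as dashed lines. Apart from Pura at -2.16, the genes past 2-fold are Kif5c, Acta2 and Cxxc5, all higher in the TSA library.

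Neighbours of Pura on chromosome 18 were taken as the 3 nearest protein-coding genes on each side. Of these 6, 3 had enough reads to be compared and none of the 3 was lower by more than 2-fold. Hbegf, further out on the 3′ side but nearer than 2 of the genes on the other side, was and is described below. Igip, the nearest on its 3′ side at a distance of 7.6 kb, had 108 and 128 reads, a fold change of 1.17 whose interval of 0.901 to 1.53 included no change. Pfdn1, a prefoldin subunit gene 111.1 kb away, had 1617 and 1352 reads (-0.27). Between them, Cystm1 had 0 and 4 reads. On the other side, Nrg2 had 2 and 0 reads and Psd2 3 and 2, too few to compare. The third gene on that side, Cxxc5, which encodes a CXXC-type zinc finger protein and lies 418.9 kb away, was higher, with 20 and 107 reads, a fold change of 5.09 (3.27 to 9.02).

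Around Purb, the 3 nearest protein-coding genes on each side were likewise taken. Of these 6, 5 could be compared and none was past 2-fold. Lower values were found for Ppia, which encodes cyclophilin A (6897 and 5914 reads, -0.24), and for Ccm2 (570 and 488 reads, -0.24). H2afv (H2az2 in RefSeq), a histone variant gene 23.1 kb from Purb, was higher, with 1193 and 1640 reads (0.44). Zmiz2 had 1468 and 1535 reads (0.05) and Myo1g, an unconventional myosin gene, 681 and 765 reads (0.15). Nacad had 4 and 0 reads. Of the 8 neighbours of both genes that were compared, 3 were lower and 5 higher (median change 0.10 on the log2 scale), and 1, Cxxc5, was past 2-fold. Over all genes compared, 48.6% were lower, 14.7% were past 2-fold and the median was 0.015.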

How the data were processed

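Total RNA of 1 control and 1 TSA-treated culture was sequenced as QuantSeq single-end 75-nt reads. The submitters' processing notes name Bowtie2, bedtools and mm10, and the methods name ExDEGA for analysis and plots. Tool versions, the annotation and the scaling are not given in the sources used here. The authors deposited log2 values, each log2 of a normalized count plus 1. In the control library, 1940 values just above 0 belonged to genes without a read and were read as 0 reads.

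Reads were recovered by dividing the back-transformed values by the worth of 1 read. Among genes with 1 to 300 reads, all but 4 of 8271 control values and all but 6 of 9572 TSA values lay within 0.1 of a whole read. Rounding of the deposited values to 3 decimals left the reads of Purb uncertain by up to 1.81. The log2 fold change was the TSA value less the control value as deposited, both holding a pseudocount of 1, and was used where either library had 10 or more reads. A floor of 3 reads was a normalized count of 3.01 in the control and 2.99 in the TSA library. With 1 library per condition no p-value was computed. The steps were tested on simulated data (scipy 1.17.1 and pandas 2.3.3 in Python 3.11.15).

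The members, gene lists and comparisons were chosen with earlier results of these data known. Named genes are the family, the list members past 2-fold and up to 4 with the most reads, the 3 nearest protein-coding genes on each side, and the 3 nearest in pattern; others are marked, apart from list members named because they had too few reads to compare. A gene that this rule covers is not reported by name here. Alternatives were another scaling, pseudocount, filter, threshold and level window.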

Additional observations from a re-analysis of the deposited data

How the results depend on the processing

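No paired analysis was possible because each condition had a single library, and for the same reason nothing was left out in turn. Over 7 scalings and pseudocounts the log2 fold change of Pura stayed between -2.17 and -2.09, and in all 6 alternatives for its percentile no gene of similar level was as low. Purb stayed between -0.32 and -0.24 and the sum between -0.60 and -0.53. Scaling by total reads gave -0.24 for Purb and -0.53 for the sum, because that scaling raises the values of all genes (median over all genes 0.085 in place of 0.015). The number of genes past 2-fold, 1783 as reported, was 4017 without a filter, 747 with 10 reads in both libraries, 419 with a mean of 50 or more normalized counts, 3293 at 1.5-fold and 703 with the whole interval beyond 2-fold. At 1.5-fold, 2 partners and 2 single-strand binders were past the threshold, in place of 0. With that minimum mean, which left 3 of the reported targets, 0 were past 2-fold and their median turned to -0.125. Scaling by total reads moved the list medians without changing their sign, from -0.14 to -0.07 for partners, -0.27 to -0.20 for granule genes, -0.10 to -0.03 for single-strand binders, 0.12 to 0.19 for reported targets and 0.10 to 0.17 for neighbours. Other counts stayed within 1.5 times of those reported, and no other value changed direction. Depth limits Purg, Acta2, Kif5c and Cxxc5, and Ramp3 and Camk2b named below, all of which had 20 reads or fewer in the control library.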

Other observations

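The surroundings of both genes were also described out to 1000 kb on each side, a distance chosen after values were seen. Around Pura, 26 protein-coding genes were compared, their median being -0.16 on the log2 scale, and 7.69% of them were past 2-fold, against 14.7% of all genes compared. Besides Cxxc5, 1 was past 2-fold: Hbegf, the gene of heparin-binding EGF-like growth factor, lies 212.4 kb on the 3′ side of Pura and had 336 reads in the control and 68 in the TSA library (-2.30). Pfdn1, with a log2 fold change of -0.27, and Igip, with 0.23, lie between Pura and Hbegf. Of the 8055 genes with at least 100 control reads, Pura and Hbegf are 2 of the 5 with the largest decreases. Pura was chosen for its decrease and the distance after values were seen, so nothing is read from their nearness.

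Around Purb, 21 genes were compared, with a median of -0.06, and 14.3% were past 2-fold, near the share of all genes. Past 2-fold were Polm, a DNA polymerase gene (73 and 160 reads, 1.11), Ramp3, a receptor activity-modifying protein gene (6 and 49 reads, 2.82), and Camk2b, a calmodulin-dependent kinase gene (12 and 3 reads, -1.71). The values of Ramp3 and Camk2b rest on few control reads.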
